A study of Mus musculus with 4 samples.

Results

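The genes described here encode the respiratory chain of the mouse. They are 57 of the 55414 genes in a table of raw read counts: the 13 messages of the mitochondrial chromosome and 44 nuclear genes for subunits of complexes I to IV and for cytochrome c, chosen by name. The mitochondrial messages comprise 7 subunits of complex I, 1 of complex III, 3 of complex IV and 2 of ATP synthase, also called complex V. The nuclear genes comprise 22 of complex I, 4 of complex II, 6 of complex III, 11 of complex IV (with Ndufa4, once assigned to complex I) and Cycs, which encodes cytochrome c. All 57 passed the filter on low counts in which 21592 genes remained.

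Counts came from 4 bulk messenger RNA libraries, 2 from wild-type mice (WT, called WT1 and WT2 by their replicate number) and 2 from Stra8 knockout mice (KO, called KO1 and KO2). Both genotypes carried a pStra8-GFP reporter, in which the promoter of Stra8 drives green fluorescent protein, and the design text describes GFP-positive cells isolated by FACS from the hippocampus; the sample labels give the tissue as brain. The stated question was how the transcriptomes of such cells differ with and without Stra8, a gene best known for its part in the entry of germ cells into meiosis. Age, sex, the knockout allele and the number of animals behind a library are not given in the labels, which also do not say whether WT1 and WT2, or KO1 and KO2, are separate animals, so p-values measure only the spread between these libraries.

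Total counts ran from 71097417 to 82172740, and between 28356 and 28801 genes were detected per library. Stra8 was close to absent, with 5, 1, 7 and 4 reads in WT1, WT2, KO1 and KO2. It fell under the filter on low counts wherever that filter was applied, and so few reads do not check the genotype labels. Markers of regions outside the hippocampus, among them Cbln1 of cerebellar granule cells and Gh of the anterior pituitary, were present in all 4 libraries. Cbln1 stood at 46.1 to 70.5 CPM (a count scaled to the size of its library) and Gh at 16.6 to 35.1 CPM. In bulk samples, fewer cells of a type and less RNA per cell cannot be told apart.

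The respiratory chain passes electrons from NADH and succinate to oxygen and pumps protons across the inner mitochondrial membrane, and ATP synthase uses the proton gradient to make ATP. Complex I takes electrons from NADH, complex II from succinate, complex III hands them to cytochrome c, and complex IV, cytochrome c oxidase, passes them to oxygen. Every complex but complex II combines subunits made inside the mitochondrion from its own DNA with subunits encoded in the nucleus and imported, so that the genomes have to supply matching parts. Neurons depend on this pathway for much of their ATP. The mitochondrial messages are cut from long transcripts that span the chromosome, with all but mt-Nd6 read from the same strand.

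Differences between the genotypes were small in all 57 genes, and those called ran in 1 direction. In KO, 7 were called higher and 0 lower (edgeR quasi-likelihood test, adjusted p under 0.05), where 3.35% of all genes tested were called higher and 3.19% lower. Of the 6474 genes with a mean of at least 30 CPM, where nearly all members lie, 9.19% were called higher and 6.72% lower. The 7 make up 12.3% of the members. At unadjusted p under 0.05, 18 members were higher and 0 lower. DESeq2 called 2 and 0, limma-trend 7 and 0 and edgeR with the dispersion at 0 called 8 and 0. Of the 6474 genes of at least 30 CPM, 1197 were higher and 887 lower at unadjusted p under 0.05. DESeq2 called 471 and 334 of them, limma-trend 594 and 429 and edgeR with the dispersion at 0 called 597 and 436. Of all 21592 genes tested, 1912 were higher and 1841 lower at unadjusted p under 0.05, and DESeq2 called 531 and 480. In 28 members both KO libraries lay above both WT libraries and in 2, Ndufs4 and Sdhc, both lay below. Over all genes tested those shares were 22.8% and 22.9%, and among genes of at least 30 CPM they were 31.6% and 26.9%. The median log2 fold change of the members was 0.032, with a range of -0.060 to 0.14.

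The mitochondrial messages were counted at very uneven levels, and 5 of the 6 at the lowest levels had near-identical copies among the transcripts of nuclear genes. The sequences below show the start of 3 messages beside the closest transcript of another gene, because this likeness bears on whether a read can be placed on the mitochondrial gene. They were read 5′ to 3′ from the GENCODE M21 transcripts (GRCm38), as DNA letters, and capitals mark the bases at which message and copy differ. mt-Co3 encodes a core subunit of complex IV, mt-Nd3 a subunit of complex I and mt-Cytb the cytochrome b of complex III. The first pair covers bases 1 to 101 of the message and holds 0 mismatches, the second covers the same bases with 1 mismatch, and the third covers bases 2 to 102 with 5.
mt-Co3: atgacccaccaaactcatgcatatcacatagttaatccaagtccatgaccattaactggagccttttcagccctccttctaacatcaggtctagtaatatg
Gm28437: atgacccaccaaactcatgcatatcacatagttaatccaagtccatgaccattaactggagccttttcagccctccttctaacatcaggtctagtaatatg
mt-Nd3: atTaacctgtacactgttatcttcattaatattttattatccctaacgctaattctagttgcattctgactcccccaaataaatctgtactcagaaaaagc
Gm28438: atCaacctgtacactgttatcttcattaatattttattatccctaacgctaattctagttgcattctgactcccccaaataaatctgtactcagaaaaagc
mt-Cytb: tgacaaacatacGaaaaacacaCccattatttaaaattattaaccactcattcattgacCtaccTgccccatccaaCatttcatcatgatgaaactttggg
Gm11410: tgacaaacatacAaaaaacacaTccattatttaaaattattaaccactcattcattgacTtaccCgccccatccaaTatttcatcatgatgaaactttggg

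Over the aligned length, mt-Co3 matched Gm28437 at 100% of 783 bases, mt-Nd3 matched Gm28438 at 99.7% of 345 bases and mt-Cytb matched Gm11410 at 92.9% of 1142 bases. The annotation classes Gm28437 and Gm28438 as unprocessed pseudogenes on the minus strand of chromosome 1, at chr1:24613189-24613971 and chr1:24612775-24613119. Gm11410 is classed as a processed pseudogene on chromosome 4, at chr4:80003989-80005131. The copies of mt-Co2 (Gm28661), mt-Atp6 (Gm10925), mt-Nd4l (Gm10222) and of 63.6% of mt-Nd4 (Gm28439) lie in the same stretch of chromosome 1. The closest copies in that stretch repeat the order of the mitochondrial chromosome, from mt-Co2 to mt-Nd4. Whether the stretch reaches further was not looked at. These positions are in GRCm38, whereas the counts were made on GRCm39.

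To measure the likeness, every run of 101 bases (the read length) in a message was looked up in the transcripts of all other genes. For 5 messages nearly all such windows also occurred elsewhere: 99.9% in mt-Co3, 99.5% in mt-Co2, 99.5% in mt-Atp6, 98.5% in mt-Nd4l and 97.6% in mt-Nd3. These 5 had 1.78 to 5.62 reads per base of message in any library. By contrast mt-Nd1, mt-Nd5 and mt-Cytb shared 0% of their windows, mt-Nd2 3.1%, mt-Co1 30.7% and mt-Nd4 60.7%. Those 6 had 172 to 839 reads per base. Dividing the whole count of a message by its number of windows found nowhere else gave 514 for mt-Nd4 in WT1. Over these 6 messages that value ran from 285 (mt-Nd5) to 1239 (mt-Co1) in WT1, with 587 for mt-Nd1. Which windows the reads came from is not known. A further pair stood apart. mt-Nd6, which shared 0% of its windows, had 25.7 to 29.2 reads per base, and it is the message of the opposite strand. Since it is not known whether counting used strand, reads of mt-Nd6 cannot be told from reads of a transcript across it, and it shares 14 bases with mt-Nd5. mt-Atp8 had 4.22 to 5.39 reads per base although it shared 0% of its windows with an annotated transcript. It lies between mt-Co2 and mt-Atp6 and overlaps mt-Atp6 by 43 bases. In the chromosome 1 stretch the copies of those neighbours are annotated and no copy of mt-Atp8 is, but genome sequence was not searched.

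**Figure D1:**
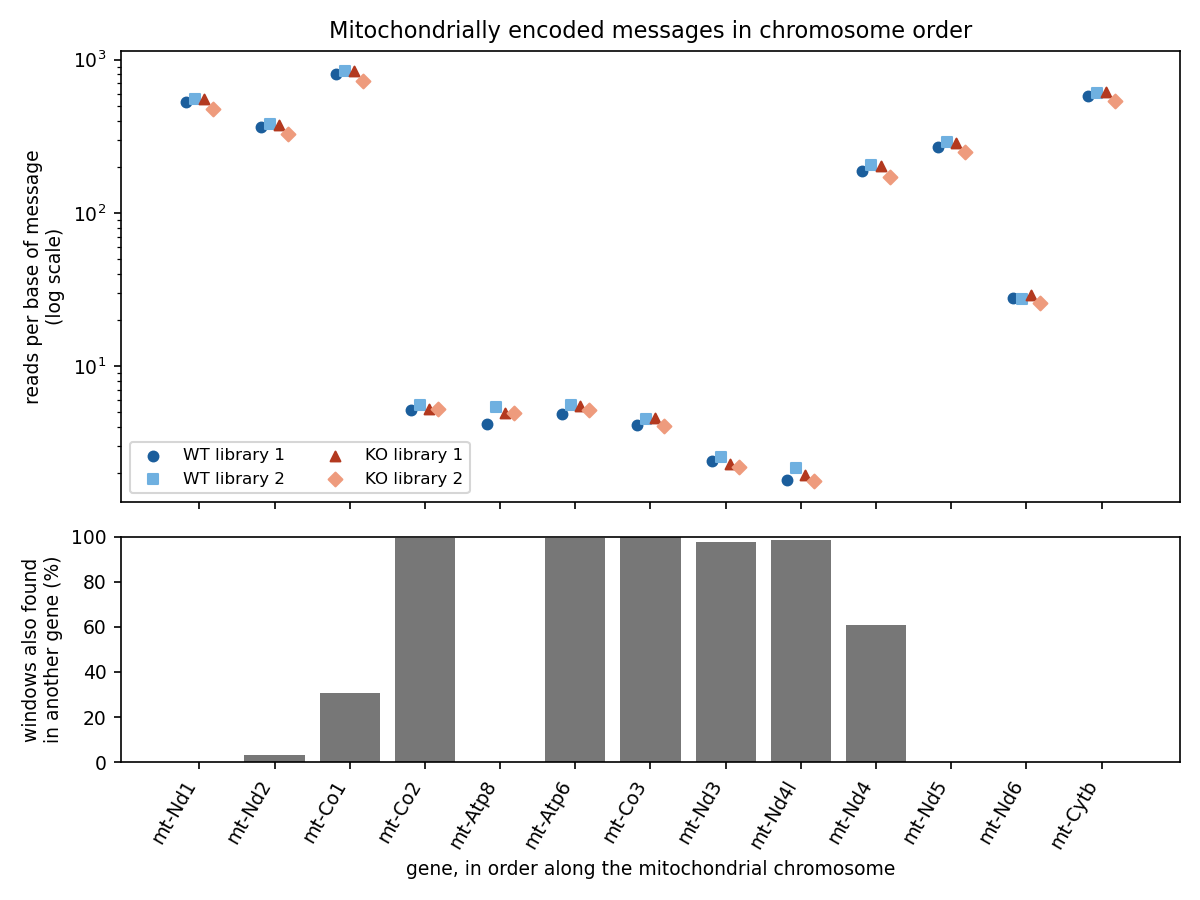
Upper panel: reads per base of message (log axis) for the 13 mitochondrial messages in chromosome order, 1 point per library (blue WT, red KO). Lower panel: percent of 101-base windows that also occur in the transcripts of another gene. The 5 messages with 97.6% to 99.9% of shared windows, and mt-Atp8, sit below 6 reads per base in every library.

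The copies' own counts did not make up the gap. Gm28661 had 2474 to 2831 reads per library and mt-Co2 3539 to 3816, so mt-Co2 took 56.0% to 59.2% of the reads of this pair. The share at the message was 39.7% to 41.3% for mt-Atp6 and 82.5% to 85.0% for mt-Nd3. Per base, mt-Co1 stood 138-fold to 445-fold above these 5 messages, and still 57.2-fold to 301-fold above them with the copy's reads added. The sources used here do not say how reads that fit several places were treated, and its part in the low levels was not tested. The levels of mt-Co2, mt-Co3, mt-Atp6, mt-Atp8, mt-Nd3 and mt-Nd4l are therefore uncertain as measures of the messages, and they are kept apart from the other 7 below. The nuclear members were little touched by such likeness. Of the 44, 14 shared any window with another gene and 0 shared over 50%, the highest being Cox7c with 44.1% and Cycs with 24.6%.

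The other 7 mitochondrial messages are called those at ordinary levels, although mt-Nd6 stood well below the rest, at 25.7 to 29.2 reads per base. Its reads, as said above, cannot be told from those of a transcript across it. Among these 7, mt-Cytb and mt-Nd6 were higher in the KO libraries and the other 5 did not pass the test. mt-Cytb read 8209 and 8492 CPM in WT1 and WT2 and 8597 and 8703 CPM in KO1 and KO2. Both KO libraries lay above both WT libraries, with a fold change of 1.04 on the linear scale. On the log2 scale the difference was 0.051 (SE 0.012, n = 2 per genotype), and it passed edgeR's test with an adjusted p of 0.00577. This call was lost with DESeq2 (adjusted p = 0.297) and with halved counts (adjusted p = 0.544), a setting that treats a read pair as 1 fragment. mt-Nd6 encodes a membrane subunit of complex I. It read 180 and 173 CPM in WT and 185 and 188 in KO, and the genotypes did not overlap. The difference was 0.080 on the log2 scale (SE 0.022, adjusted p = 0.0233). Leaving out WT2 (adjusted p = 0.378) or KO2 (adjusted p = 0.0697) ended that call, as did DESeq2 (adjusted p = 0.0534).

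The 5 others differed by less. mt-Co1, the catalytic subunit of complex IV and the most abundant message per base, read 15387 and 15759 CPM in WT and 15842 and 15805 in KO (log2 fold change 0.023, SE 0.0093, adjusted p = 0.175). mt-Nd1 read 6234 and 6415 CPM in WT and 6428 and 6448 in KO (0.026, SE 0.011, adjusted p = 0.204). In both genes the KO libraries lay above the WT libraries by a margin smaller than the gap between the WT libraries. mt-Co1 was called higher by limma-trend and by edgeR with the dispersion at 0, without the filter (adjusted p = 0.0117) and without WT2 (adjusted p = 6.6e-07), and mt-Nd1 without the filter (adjusted p = 0.0344) and without WT2 (adjusted p = 1.64e-05). The remaining 3, all of complex I, overlapped between genotypes. mt-Nd2 read 4674, 4829, 4767 and 4822 CPM in WT1, WT2, KO1 and KO2. mt-Nd4 read 3198, 3463, 3382 and 3355 CPM in the same order, and mt-Nd5 read 6085, 6456, 6339 and 6414 CPM. In all of them WT1 was the lowest of the 4. Without WT1, mt-Nd4 turned to a log2 fold change of -0.039 and was called lower (adjusted p = 0.00831), while without WT2 it was called higher at 0.075 (adjusted p = 6.69e-10), so its direction rests on which WT library is used.

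The 6 messages at low levels did not pass the test. At adjusted p under 0.05, 0 of 6 were called by edgeR, DESeq2, limma-trend or edgeR with the dispersion at 0, and 2 of 6 had an unadjusted p under 0.05, both higher. Under other settings mt-Atp6 was called higher without the filter (adjusted p = 0.0435) and without KO1 (adjusted p = 0.00975) or WT2 (adjusted p = 0.00117), mt-Co2 without KO1 (adjusted p = 0.0136) and mt-Atp8 without WT2 (adjusted p = 0.0222). mt-Co3 read 40.4 and 43.3 CPM in WT and 43.9 and 45.3 in KO, the only one of the 6 whose genotypes did not overlap (log2 fold change 0.092, SE 0.040, adjusted p = 0.225). mt-Atp6, in the proton channel of ATP synthase, read 41.4 and 46.7 CPM in WT and 46.0 and 49.96 in KO (0.12, SE 0.047, adjusted p = 0.147). mt-Atp8, its partner subunit, read 10.7 and 13.4 CPM in WT and 12.4 and 14.2 in KO (0.14, SE 0.088, adjusted p = 0.474). Those values spread as far within a genotype as between genotypes. mt-Co2, which carries the site that takes electrons from cytochrome c, read 43.9 and 46.5 CPM in WT and 44.0 and 50.7 in KO (adjusted p = 0.560). The complex I pair mt-Nd3 and mt-Nd4l read 9.78 to 10.9 CPM and 6.64 to 7.86 CPM over the 4 libraries, with log2 fold changes of -0.052 (SE 0.078) and 0.0066 (SE 0.095).

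Of the 13 mitochondrial messages, 2 (15.4%) were called higher and 0 lower. Over all genes tested 3.35% were called higher, and 9.19% of those of at least 30 CPM. At unadjusted p under 0.05, 6 were higher and 0 lower, and DESeq2 called 0 in either direction. At that unadjusted p, 1912 of all 21592 genes tested and 1197 of the 6474 of at least 30 CPM were higher. The median log2 fold change of the 13 was 0.026, against -0.00038 over all genes tested and 0.0040 over those of at least 30 CPM. It was 0.024 in the 7 at ordinary levels and 0.078 in the 6 at low levels. Without WT2 the median of the 13 was 0.075 and 8 of them were called higher, among them mt-Atp6 and mt-Atp8. Without WT1 the median was 0.0061, with 2 called higher and mt-Nd4 lower.

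Among the 44 nuclear members, complex IV and cytochrome c held every call. Outside the members, 1 further complex I subunit and 2 of ATP synthase were called higher, as given below. Ndufa1 of complex I was not called by edgeR (adjusted p = 0.0567), though its log2 fold change of 0.13 (SE 0.040) was as high as that of Cox6b1 (0.13, SE 0.025). The 11 nuclear subunits of complex IV all had a positive log2 fold change, as did 10765 of all 21592 genes tested and 3433 of the 6474 of at least 30 CPM. Of the 11, 4 (36.4%) were called higher and 0 lower, where 3.35% of all genes tested and 9.19% of those of at least 30 CPM were called higher. The median of the 11 was 0.064. In 10 of the 11 both KO libraries lay above both WT libraries, the exception being Ndufa4. That is 90.9% of the members, where 22.8% of all genes tested and 31.6% of those of at least 30 CPM lay so. The differences were small, with fold changes between 1.01 and 1.09. The complex IV genes were singled out after their values were seen. Markers of oligodendrocytes and of striatal and neocortical neurons were also higher in KO, with median log2 fold changes of 0.089, 0.30 and 0.18. Other lists were lower, with medians of -0.71 for dentate granule cells, -0.18 for CA1 and CA3 neurons and -0.70 for cerebellar granule cells. Those for Purkinje cells, choroid plexus and anterior pituitary were -0.47, -0.49 and -1.06. The part of these cell types in the differences was not tested.

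**Figure D2:**
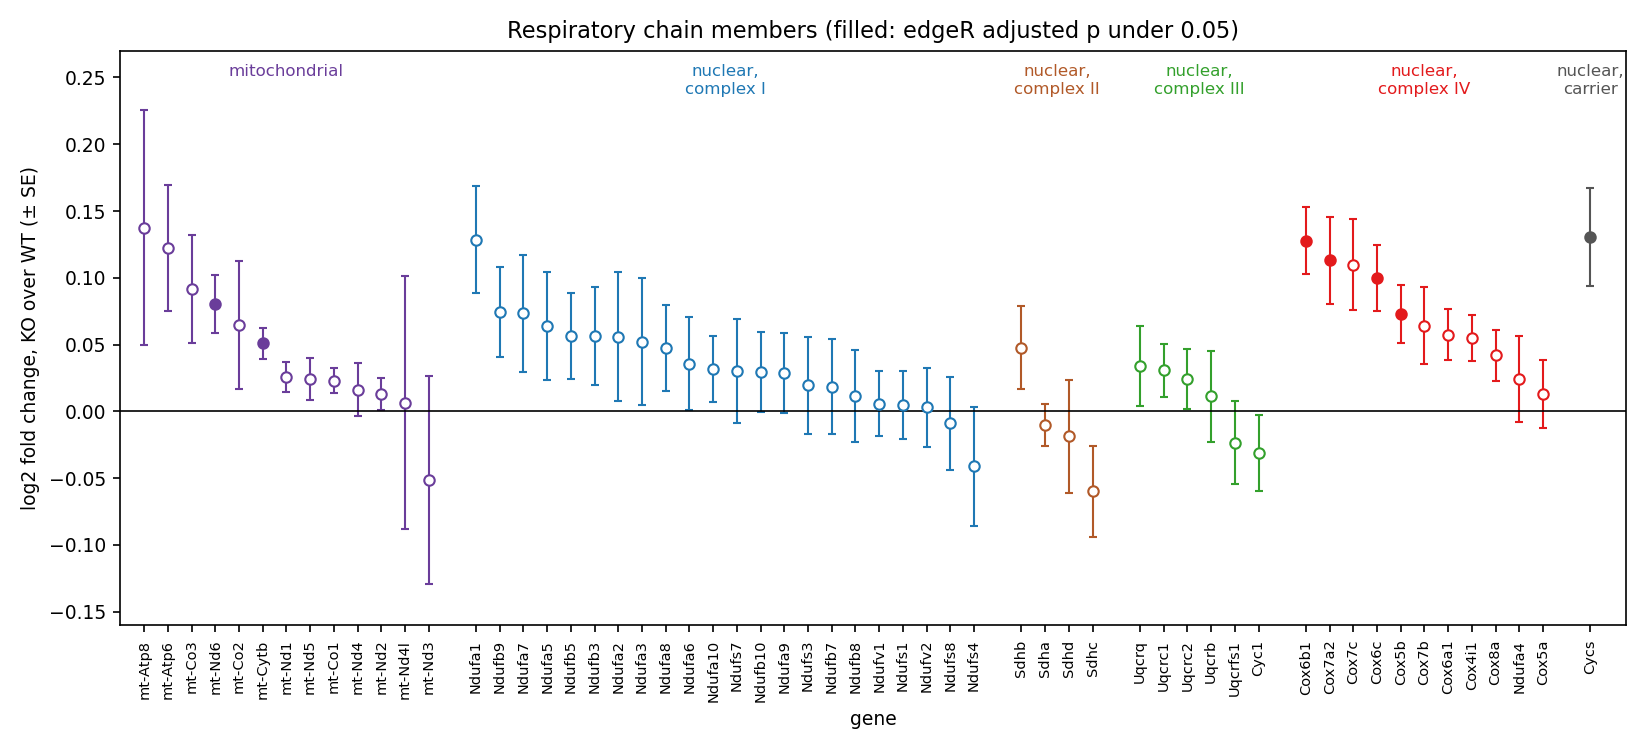
Log2 fold change of each of the 57 genes, KO over WT, with its standard error (n = 2 libraries per genotype), grouped by genome and complex and ordered by size within a group. Filled points passed edgeR at adjusted p under 0.05: mt-Nd6 and mt-Cytb among the mitochondrial genes, and Cox6b1, Cox7a2, Cox6c, Cox5b and Cycs among the nuclear genes.

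Cox6b1, a small subunit on the side of complex IV where cytochrome c docks, read 128 and 129.6 CPM in WT and 137 and 145 in KO. Both KO libraries were above both WT libraries, and the gap between the KO libraries was wider than that between the WT libraries. On the log2 scale the difference was 0.13 (SE 0.025, adjusted p = 0.0015). Cox6b1 was called higher under every alternative that was run, with log2 fold changes of 0.088 to 0.17 as libraries were left out in turn. Cox6c, a single-pass membrane subunit, read 107 and 105 CPM in WT and 115 and 113 in KO, again without overlap (log2 fold change 0.0996, SE 0.025, adjusted p = 0.0117). It lost its call without WT2 (adjusted p = 0.11) or KO1 (adjusted p = 0.0934).

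Cox7a2, the isoform of subunit 7a made in most tissues, read 65.7 and 69.8 CPM in WT and 74.5 and 72.1 in KO (0.11, SE 0.033, adjusted p = 0.0349). Cox5b, a zinc-binding subunit on the matrix side, read 168 and 173 CPM in WT and 176 and 182 in KO (0.073, SE 0.022, adjusted p = 0.0446). Neither gene overlapped between genotypes, and both were near the threshold. Cox7a2 lost its call without WT1 (adjusted p = 0.438) or KO1 (adjusted p = 0.201), with DESeq2 (adjusted p = 0.0957) and with library size alone (adjusted p = 0.0513). Cox5b lost its call without WT1 (adjusted p = 0.377) or KO2 (adjusted p = 0.298) and under 5 other settings, where its adjusted p was 0.0542 to 0.101. No windows of Cox6b1 or Cox7a2 occurred in another gene, and 7.1% of those of Cox6c and 7.8% of those of Cox5b did.

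The other 7 nuclear subunits of complex IV did not pass the test. Cox7c read 67.0 and 66.9 CPM in WT and 75.0 and 69.3 in KO (log2 fold change 0.11, adjusted p = 0.0521). Cox4i1, the brain's usual isoform of the largest nuclear subunit, read 291 and 285 CPM in WT and 299.6 and 298 in KO (0.055, adjusted p = 0.0554). Both were near the threshold and passed it under several settings. Cox7c was called higher without the filter (adjusted p = 0.0186), at a minimum count of 50 (adjusted p = 0.0384), with DESeq2 size factors, with the dispersion at 0 and without KO2 (adjusted p = 4.02e-04). Cox4i1 was called higher with halved counts (adjusted p = 0.0238), at a minimum count of 50 (adjusted p = 0.0386), without the filter, with the mitochondrial members left out before scaling and without WT1 (adjusted p = 0.0395). Cox6a1, Cox7b and Cox8a had log2 fold changes of 0.057, 0.064 and 0.042 with adjusted p of 0.0765, 0.244 and 0.245. Cox5a was nearly level, at 95.8 and 94.97 CPM in WT and 96.6 and 95.9 in KO (0.013, adjusted p = 0.872). Ndufa4 read 101 and 103 CPM in WT and 109 and 98.8 in KO, so that the KO libraries lay on either side of the WT pair (0.024, adjusted p = 0.788).

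**Figure D3:**
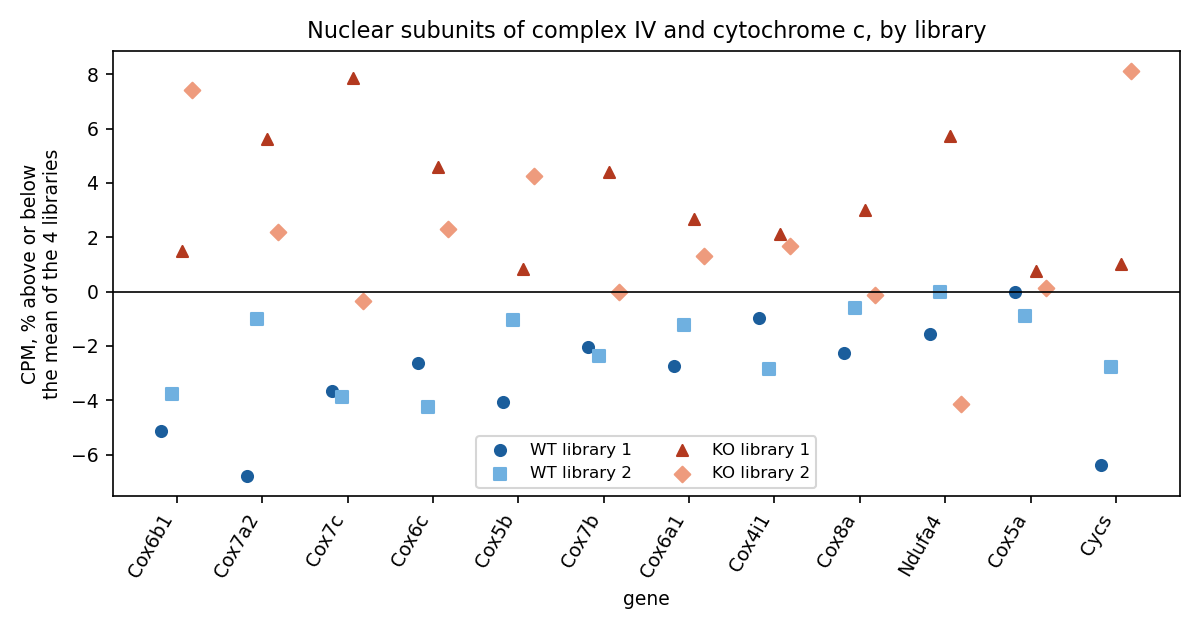
CPM of each nuclear complex IV gene and of Cycs in each library, as percent above or below the mean of the 4 libraries (n = 2 libraries per genotype, 1 point each, blue WT and red KO). KO points sit above WT points for all genes but Ndufa4, and the KO libraries stand well apart from each other for uncalled genes (Ndufa4, Cox7c) and called ones (Cox6b1, Cycs) alike.

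Cycs encodes the soluble carrier that takes electrons from complex III to complex IV. It read 51.9 and 53.9 CPM in WT and 56.0 and 59.96 in KO, without overlap (log2 fold change 0.13, SE 0.037, adjusted p = 0.0296). The call was lost on leaving out WT1 (adjusted p = 0.216) or KO2 (adjusted p = 0.331) and with DESeq2 (adjusted p = 0.0791). Because 24.6% of its windows also occur in other genes, its level is less certain than those of Cox6b1 and Cox7a2.

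None of the 22 nuclear complex I genes was called by edgeR, DESeq2, limma-trend or edgeR with the dispersion at 0, and at unadjusted p under 0.05 there were 2 higher and 0 lower. Their median log2 fold change was 0.031 and 20 of the 22 were positive. Ndufa1, a small accessory subunit needed for assembly, had the highest value, at 37.3 and 38.3 CPM in WT and 40.5 and 42.2 in KO (0.13, SE 0.040, adjusted p = 0.0567). It was called higher at a minimum count of 50 (adjusted p = 0.0425) and without KO1 (adjusted p = 0.0412). Ndufs4, an accessory subunit whose loss causes complex I deficiency, had the lowest, at 30.99 and 31.4 CPM in WT and 30.1 and 30.6 in KO (-0.041, SE 0.044, adjusted p = 0.724). These were the extremes of a group in which 12 genes overlapped between genotypes, 9 had both KO libraries above and 1, Ndufs4, had both below. The 9 are 40.9% of the group, where 31.6% of genes of at least 30 CPM and 22.8% of all genes tested lay so. Ndufa10, the member with the highest CPM, read 124 and 127 in WT and 126 and 131 in KO (adjusted p = 0.586). The 6 core subunits, in the arm that takes up NADH and passes its electrons on (Ndufs1, Ndufs3, Ndufs7, Ndufs8, Ndufv1 and Ndufv2), had a median of 0.0053 and lay between -0.0090 and 0.030. The 16 accessory subunits had a median of 0.050. The difference between core and accessory subunits was not tested.

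In complex II, also an enzyme of the citric acid cycle and encoded wholly in the nucleus, 0 of 4 genes were called by any of the tools and 0 had an unadjusted p under 0.05. Sdha, the flavoprotein that oxidises succinate, read 360 and 365 CPM in WT and 359 and 361 in KO (log2 fold change -0.010, SE 0.016). Sdhb, the iron-sulfur subunit, had the highest value (0.048, SE 0.031, adjusted p = 0.478). Sdhc, a membrane anchor, read 62.2 and 63.0 CPM in WT and 61.9 and 58.1 in KO, both KO libraries below both WT libraries (-0.060, SE 0.034, adjusted p = 0.392). The other anchor, Sdhd, read 37.8 and 39.8 CPM in WT and 39.4 and 37.2 in KO. Of the 4 genes, 3 had a negative value, and the median was -0.015.

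Complex III likewise had 0 of 6 genes called by any of the tools and 0 with an unadjusted p under 0.05, with a median of 0.018. Uqcrc1, a core protein and the member with the highest CPM, read 185 and 189 CPM in WT and 191 and 191 in KO (log2 fold change 0.031, adjusted p = 0.472). Cyc1, which holds the haem that passes electrons to cytochrome c, read 95.6 and 99.99 CPM in WT and 97.5 and 93.7 in KO, with overlap (-0.031, adjusted p = 0.654). Uqcrq had the highest log2 fold change, 0.034 (adjusted p = 0.636). Uqcrb, the member with the lowest CPM, read 52.4 to 54.1 CPM in the 4 libraries. The Rieske protein Uqcrfs1 and Cyc1 were the members with negative values.

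Per length the complexes stood at different levels. In CPM per kilobase of the principal transcript, averaged over the libraries, the nuclear subunits of complex IV had a median of 169 and ran from 79.8 (Cox7b) to 438 (Cox8a). The medians were 61.3 for complex I, with Ndufs4 lowest at 18.1 and Ndufb10 highest at 119, 48.0 for complex II and 65.2 for complex III. Cycs stood at 17.8. Among mitochondrial messages mt-Co1 stood at 10161, mt-Cytb at 7430, mt-Nd1 at 6668 and mt-Nd6 at 350, so those at ordinary levels other than mt-Nd6 were far above every nuclear member. Transcript lengths came from GENCODE M21, and the annotation behind the counts may differ.

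Set against each other, the genomes differed in their ratio between the genotypes by less than the WT libraries differed from each other. Here the 13 mitochondrial messages include the 6 at low levels, which add few of the counts. Together the 13 took 4.43% of the counts in WT1, 4.58% in WT2, 4.55% in KO1 and 4.57% in KO2. The mean was 4.51% ± 0.106 (SD, n = 2) in WT and 4.56% ± 0.015 (SD, n = 2) in KO, and both KO values fell between the WT values. The 44 nuclear genes took 0.404% and 0.408% in WT and 0.415% and 0.414% in KO, without overlap. The ratio of mitochondrial to nuclear counts was 10.97 and 11.22 in WT and 10.98 and 11.06 in KO, again with the KO values inside the WT range. With 2 libraries against 2, an exact two-sided permutation test cannot give a p below 0.333, so no test was made of these shares.

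The nuclear complexes differed in how their summed shares stood. Complex IV took 0.154% and 0.155% of counts in WT and 0.162% and 0.160% in KO, a mean 3.94% higher. Complex I took 0.132% and 0.133% in WT and 0.133% and 0.135% in KO, a mean 1.52% higher. Complex III differed by 0.183% between the means and complex II was 1.27% lower in KO, with overlap in both. Dividing complex IV by complex I within each library gave 1.17 and 1.16 in WT and 1.21 and 1.18 in KO.

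The spread between libraries of 1 genotype bounds these differences. As a median over genes, the 7 mitochondrial messages at ordinary levels differed by 0.047 on the log2 scale between WT2 and WT1, and by 0.025 between the genotypes. For the nuclear complex IV genes the same medians were 0.021 between the WT libraries, -0.032 between KO2 and KO1 and 0.063 between the genotypes. Of the sets in the plot of library medians, complex IV was the one whose difference between genotypes exceeded both differences within a genotype by the widest margin, while for the mitochondrial messages the WT libraries differed from each other more than the genotypes did.

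**Figure D4:**
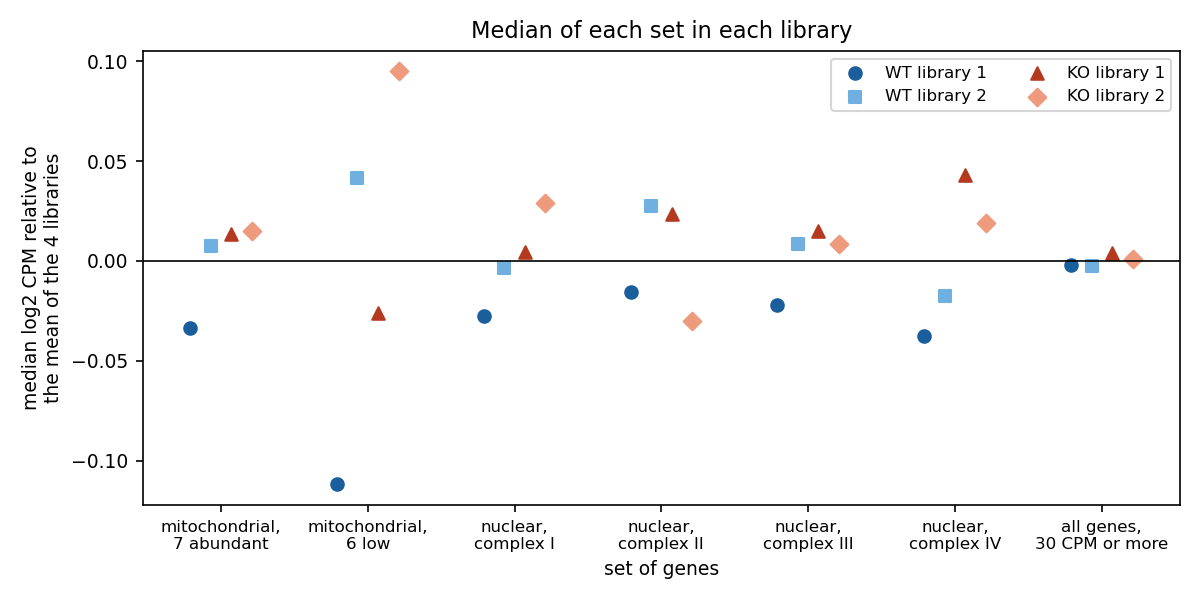
Median over the genes of each set of the log2 CPM in a library relative to the mean of the 4 libraries, 1 point per library (blue WT, red KO). WT1 is the lowest point for the mitochondrial sets, and for complex IV, complex I and all genes of at least 30 CPM both WT points lie below 0 and both KO points above it, with the 30 CPM set nearest to 0.

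The other genes of the pathway gave few calls. For comparison, 3.35% of all genes tested and 9.19% of those of at least 30 CPM were called higher. Of 14 further complex I subunits 1 was called, Ndufa12 (log2 fold change 0.11, SE 0.032, adjusted p = 0.0459), which missed the threshold without WT1 (adjusted p = 0.215) or KO2 (adjusted p = 0.482) and under 5 other settings (adjusted p of 0.0505 to 0.115). Of 15 nuclear subunits of ATP synthase 2 were called higher and 0 lower, with a median of 0.0061. Atp5pb, in the stalk that holds the enzyme still, had a log2 fold change of 0.086 (SE 0.019, adjusted p = 0.00512), and leaving out WT1 ended its call (adjusted p = 0.0621). Atp5f1d, in the turning stalk, had 0.074 (adjusted p = 0.034), and leaving out WT2 (adjusted p = 0.323) or KO2 (adjusted p = 0.239) ended its call, as did 3 other settings (adjusted p of 0.0503 to 0.0745). Both ribosomal RNAs of the mitochondrion were called higher. mt-Rnr1 read 3109 and 3166 CPM in WT and 3305 and 3294 in KO (0.073, SE 0.011, adjusted p = 6.58e-05). mt-Rnr2 read 4721 and 4860 CPM in WT and 4965 and 4900 in KO (0.042, adjusted p = 0.0274), and it lost its call without WT1 (adjusted p = 0.238) or KO1 (adjusted p = 0.106) and with DESeq2 (adjusted p = 0.361) or library size alone (adjusted p = 0.0795). With halved counts the adjusted p of mt-Rnr1 was 0.171 and that of mt-Rnr2 0.564. Of the mitochondrial ribosomal and transfer RNAs, 24 in all, 11 were tested, 7 had no read, and capture on oligo dT limits what their counts measure.

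The remaining lists of the pathway held 0 calls by edgeR, DESeq2, limma-trend or edgeR with the dispersion at 0. These were 3 further complex III subunits (median 0.054), 7 tissue-restricted isoforms of complex IV (-0.036), 14 assembly factors of complex I (0.034), 27 of complexes II to IV (0.013), 25 genes for the upkeep and transcription of mitochondrial DNA (0.00075) and 11 nuclear regulators of the chain (-0.039). At unadjusted p under 0.05 they held 1, 0, 2, 1, 0 and 0 higher and 0, 0, 1, 0, 2 and 1 lower, in the same order. The abundant members were Uqcrh (0.054), Cox6a2 (5.54 to 6.80 CPM), Ecsit (0.084), Cox7a2l (0.014), Grsf1 (0.0066) and Yy1 (0.020), none with an adjusted p under 0.256. Of the 11 regulators 9 had a negative log2 fold change. Cox6a2, the isoform of heart and muscle and of some interneurons, stood far below Cox6a1 per kilobase, at 9.20 against 362 CPM per kilobase.

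Among the called nuclear members with a promoter window, Cox5b and Cox7a2 held none of the motifs searched for below. The promoters of Cox6b1 and Cycs are shown because both genes were called higher and their upstream sequence holds a motif of a regulator of respiratory chain genes. The 250 bases before each start were taken from RefSeq promoter windows (GRCm38.p6), on the minus strand, at chr7:30626115-30626364 for Cox6b1 and chr6:50566570-50566819 for Cycs. Capitals mark a match to the GABPA motif CCGGAAG in Cox6b1, on the opposite strand and 28 bases before the start, and to the NRF1 motif GCGCATGCG in Cycs, on the opposite strand and 61 bases before it.
Cox6b1: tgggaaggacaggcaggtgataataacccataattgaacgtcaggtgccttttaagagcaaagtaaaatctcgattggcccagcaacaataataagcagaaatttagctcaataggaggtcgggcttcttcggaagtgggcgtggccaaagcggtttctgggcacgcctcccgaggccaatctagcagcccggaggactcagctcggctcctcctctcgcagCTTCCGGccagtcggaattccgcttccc
Cycs: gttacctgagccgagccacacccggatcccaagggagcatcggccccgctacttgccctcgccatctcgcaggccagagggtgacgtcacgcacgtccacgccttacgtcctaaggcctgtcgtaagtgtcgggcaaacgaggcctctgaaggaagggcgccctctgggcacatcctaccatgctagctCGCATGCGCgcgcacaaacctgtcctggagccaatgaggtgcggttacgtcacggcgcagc

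Of the 44 nuclear members, 34 had a promoter window of 300 bases in the table. Searched on both strands, GCGCATGCG was found in 11.8% of the 34 and in 2.0% of the 27025 genes with a window. CCGGAAG was found in 23.5% against 9.9%, the YY1 motif AAGATGGCG in 8.8% against 1.6% and the SP1 motif GGGCGGG in 32.4% against 27.9%. Of the 5 nuclear members called higher, 4 had a window. Of these 1 held the NRF1 motif, 1 the GABPA motif and 0 the YY1 or SP1 motif. Among the 9 complex IV genes with a window, 3 held the GABPA motif, 1 the NRF1 motif, 1 the SP1 motif and 0 the YY1 motif. Among the 25 nuclear members outside complex IV with a window, 5 held the GABPA motif, 3 the NRF1 motif, 10 the SP1 motif and 3 the YY1 motif. A match is a run of letters and not a measured binding site. Nrf1 itself had a log2 fold change of -0.057 (adjusted p = 0.682) and Gabpa one of -0.047 (adjusted p = 0.661).

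Markers of several cell types and brain regions also differed between the genotypes, some lists by more than any respiratory chain gene. All 7 striatal neuron markers, Ppp1r1b and Pde10a among them, were called higher, and their summed level was 703 CPM in both WT libraries and 826 to 843 in the KO libraries. Of 6 neocortical markers 5 were higher (442 to 444 CPM in WT, 500.3 to 502 in KO). All 8 oligodendrocyte markers, Mbp among them, were higher (10157 to 10234 CPM in WT, 10790 to 10807 in KO). Of 10 general neuron markers 4 were higher, Syt1 but not Snap25 among them (7807 to 7812 CPM in WT, 8010 to 8047 in KO). Of 6 erythroid markers 4 were higher, led by Hbb-bs and Hba-a1 (188 to 202 CPM in WT, 228 to 237 in KO).

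Other markers were lower in KO. These were 7 of 8 for cerebellar granule cells (Zic1, Cbln1; 379 to 384 CPM in WT, 237 to 238 in KO) and 6 of 7 for Purkinje cells (Itpr1 but not Gad1; 1144 to 1147 CPM in WT, 1002 to 1003 in KO). They were also 6 of 6 for dentate granule cells (Calb1, a gene of the Purkinje list too, and Prox1; 237 to 239 CPM in WT, 189 to 196 in KO) and 5 of 7 for CA1 and CA3 neurons (Wfs1 but not Pou3f1; 291 to 292 CPM in WT, 259 to 268 in KO). Choroid plexus markers were lower in 6 of 8 (Ttr, Kl; 636 to 638 CPM in WT, 436 to 444 in KO), and pituitary markers in 3 of 4 tested (Gh, Pomc; 61.6 to 61.8 CPM in WT, 29.2 to 29.4 in KO). Astrocyte markers were lower in 3 of 8, Aldoc but not Slc1a2 among them (5534 to 5546 CPM in WT, 5422 to 5435 in KO).

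Microglial and muscle markers held 0 calls of 8 and of 4 tested by any of the 4 tools, with 1 and 0 at unadjusted p under 0.05. The summed microglial level was 260.0 CPM in both WT libraries and 262.3 to 267 in KO, with Csf1r as the most abundant gene, and that of muscle, led by Acta1 and Tnnt2, was 8.94 to 9.99 CPM in WT and 10.2 in KO. Of the endothelial and mural markers, led by Rgs5 and Flt1, 1 of 7 was called higher (312 to 320 CPM in WT, 312 to 324 in KO). No marker of any list was at 0 in all libraries. Whether these cell types account for any difference in the respiratory chain genes was not tested.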

How the data were processed

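Messenger RNA was sequenced in 4 libraries, grouped as WT and KO by their titles. The deposited values are raw read counts per Ensembl gene, made by the authors and held in 1 table with 0 columns left over. In that table only the KO columns have an added suffix; its meaning is not given, so a difference of origin that it might mark cannot be told apart from genotype. The submitters' processing notes list GRCm39, FastQC, STAR 2.6.1c, featureCounts and DESeq2 without their roles. Which annotation, which strand setting and which rule for multi-mapping reads were used is not known here. Of the counts between 1 and 20, 72.8% to 74.3% were even, as when both mates of a pair are counted. Symbols were found for 52081 of the 55414 identifiers.

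In R 4.3.3, edgeR 4.0.16 was run on the counts of all genes (filterByExpr at a minimum count of 10, TMM, glmQLFit and glmQLFTest), with Benjamini-Hochberg adjustment over all genes tested and calls at an adjusted p under 0.05. TMM factors were 0.9966 to 1.005, and CPM use the scaled library sizes. Fold changes are KO over WT, and percentages of counts use raw totals. The alternatives were DESeq2 1.42.0, its size factors, limma-trend (limma 3.58.1, prior count 2), library size alone, no filter, a minimum count of 50, dispersion 0, halved counts, mitochondrial members left out before scaling, adjusted p under 0.1, the replicate number as a block and each library left out. The complex IV totals, and repeats of other pathway genes that were called, were added after seeing the data. The procedure was tested on simulated data, in which every changed gene had a larger fold than the members called here. That test does not cover differences as small as theirs. The shared-window search used GENCODE M21 transcripts, with blastn at a minimum identity of 80% for the closest copy. No counting intervals are given for shares, since the mates of a pair are not independent.

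The members, the other gene lists and the marker lists were chosen with earlier results of these data known. Genes named by rule are all 13 mitochondrial members, every nuclear member called, in each complex the nuclear members with the highest and lowest log2 fold change and CPM, Cycs, up to 4 called members of each other pathway list (or, with none called, the most abundant), the 2 most abundant of each marker list, and Stra8. A few genes taken by this rule are left out of the text. Other members and regulators were named after their values were seen.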

Additional observations from a re-analysis of the deposited data

How the results depend on the processing

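Leaving out the filter changed the 7 members called higher to 12, DESeq2 to 2, and an adjusted p under 0.1 to 11. As libraries were left out in turn the count ran from 5 (without WT1) to 12 (without WT2). Members called lower numbered 0 under each setting except without WT1, where it was 1, mt-Nd4, a range of 0 to 1. Nuclear complex IV calls, 4 above, numbered 2 with library size alone, 2 with DESeq2, 7 at an adjusted p under 0.1 and 2 to 5 with a library left out (2 without KO1). Over the libraries left out, median log2 fold changes ran from 0.0061 to 0.075 for mitochondrial members and from 0.024 to 0.048 for nuclear members, both highest without WT2, and from 0.050 to 0.088 for complex IV, highest without KO2. The KO minus WT difference in mitochondrial over nuclear counts was -0.076 as a ratio and 0.010 as a difference of mean log2 CPM. Both values include the 6 messages at low levels, which weigh more in the mean of logs than in the ratio. Among the genes named by rule, signs turned in 10, each uncalled with all libraries: their ranges with a library left out were -0.0095 to 0.037 for mt-Nd2, -0.12 to 0.020 for mt-Nd3, -0.039 to 0.075 for mt-Nd4, -0.11 to 0.13 for mt-Nd4l (-0.0028 with library size alone), -0.017 to 0.068 for mt-Nd5, -0.037 to 0.17 for mt-Co2, -0.016 to 0.31 for mt-Atp8, -0.061 to 0.022 for Sdhd, -0.063 to 0.0019 for Cyc1 and -0.0094 to 0.033 for Uqcrb. Of the 11 complex IV genes 10 were positive without KO1, and 11 under the other settings. A lone library was assumed to vary like the other genotype's pair. The cause of these changes was not tested. With the replicate number as a block 11 members were called higher, Cox4i1, Cox7c, mt-Atp6 and Ndufa1 in addition to the 7, and 0 lower. The numbers were not shown to pair the samples: over 13254 genes the deviations of same-numbered libraries correlated at 0.034. Among members the smallest difference called was 0.051 on the log2 scale, in the deeply counted mt-Cytb, while the standard errors were 0.040 to 0.095 for the 6 mitochondrial messages at low levels.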
